A study of Mus musculus with 237 samples.

Results

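The genes described here encode the extracellular matrix that mesenchymal cells of the dermis secrete, together with the enzymes that assemble and remodel it. The list holds 40 genes, of 55335 genes in the count table, and each was found by the Ensembl identifier of its symbol. Single cells of mouse embryonic skin at E14.5 were sequenced from C57BL/6N embryos carried by surrogate ICR mothers. By their labels, 66 cells came from 3 wild type (WT) embryos and 171 cells from 7 Trp63 mutant embryos, in which p63, the transcription factor needed to build a stratified epidermis, was knocked out by CRISPR-Cas9 in the zygote. WT epidermis was first parted from the dermis with dispase and then treated with trypsin, whereas knockout fetuses went straight to trypsin. In both genotypes, living cells negative for CD45, TER119 and CD140a were sorted, CD140a being the protein of Pdgfra, a receptor of dermal fibroblasts. Amplified cDNA was then screened by qPCR. The labels give this for Trp63 mutant cells, and the study's methods for both genotypes, with Krt5 required of WT and Krt8 of knockout cells and little Pdgfra allowed in either. Genes of the state rules thus took part in the choice of cells, and the numbers of cells do not give the composition of the skin. All 70 cells labelled mutant fibroblast came from embryo MU01, which gave 3 of the cells labelled surface ectoderm remnant and none of those labelled K5 K14high.

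Each column of the count table holds the reads of 1 cell, and 16 of the columns could be tied to a labelled cell. The columns were therefore grouped by expression in CPM, which is a gene's count divided by the column's total and multiplied by 1000000. A column was called mesenchymal when Col1a1 and Col3a1 both reached 100 CPM. It was called simple when the simple-epithelium keratins Krt8 and Krt18 both reached 100 CPM while Krt5 and Krt14 stayed under 100 CPM. It was called basal when the basal-layer keratins Krt5 and Krt14 both reached 300 CPM while Krt8 stayed under 100 CPM. These rules gave 79 mesenchymal, 66 simple and 54 basal columns, with 1 column counted as both mesenchymal and simple and 39 columns in no state. Since no column outside the 16 has an embryo or genotype, a state is 1 pooled sample. No test was made, and state, embryo, genotype, tissue preparation and qPCR screen cannot be told apart.

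Fibrillar collagens form the tensile fibres of the dermis, and beaded collagen VI, the elastic-fibre proteins and small leucine-rich proteoglycans organise the network around them. Matricellular proteins such as SPARC and periostin bind collagen without being structural fibres, and lysyl oxidases cross-link the fibres while metalloproteinases and their TIMP inhibitors set their turnover. Dermal fibroblasts are the textbook source of these proteins in skin, and keratinocytes are better known for making the basement membrane.

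The promoters of 5 genes are shown because the genes stand for the patterns that follow. Col1a2 and Col3a1 encode fibrillar chains and were high in the same mesenchymal columns, but in simple columns Col3a1 was found far more often. Sparc was found in nearly all columns of the 3 states, Fbln2 in mesenchymal and basal columns, and Timp3 more often in epithelial than in mesenchymal columns. Each sequence runs 5′ to 3′ from 250 bases before to 50 bases after the RefSeq start site on GRCm38.p6. Capitals mark matches, on either strand, to a TATA box (TATAAA), to a CCAAT box (CCAAT) and to a GC box (GGGCGG). A further motif, the AP-1 site (TGANTCA), has no match in these 5 windows, and no motif of the 4 contains another.
Col1a2, chr6:4505368-4505667, plus strand: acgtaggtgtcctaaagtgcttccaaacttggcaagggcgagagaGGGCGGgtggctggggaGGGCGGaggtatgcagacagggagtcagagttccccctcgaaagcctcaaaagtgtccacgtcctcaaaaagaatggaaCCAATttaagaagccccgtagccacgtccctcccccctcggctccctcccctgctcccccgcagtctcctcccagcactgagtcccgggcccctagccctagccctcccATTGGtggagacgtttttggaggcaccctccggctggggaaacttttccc
Col3a1, chr1:45311288-45311587, plus strand: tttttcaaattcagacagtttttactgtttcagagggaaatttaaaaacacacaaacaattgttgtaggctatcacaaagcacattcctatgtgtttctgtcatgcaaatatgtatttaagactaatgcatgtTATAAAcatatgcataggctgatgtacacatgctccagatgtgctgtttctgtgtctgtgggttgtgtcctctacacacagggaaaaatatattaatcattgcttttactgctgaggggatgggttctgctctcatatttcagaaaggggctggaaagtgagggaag
Sparc, chr11:55420031-55420330, minus strand: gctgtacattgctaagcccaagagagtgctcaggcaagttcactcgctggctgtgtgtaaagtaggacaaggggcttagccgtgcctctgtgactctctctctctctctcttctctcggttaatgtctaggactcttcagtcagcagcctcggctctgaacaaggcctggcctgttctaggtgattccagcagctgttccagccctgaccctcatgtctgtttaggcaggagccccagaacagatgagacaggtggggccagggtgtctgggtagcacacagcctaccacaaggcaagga
Fbln2, chr6:91212514-91212813, plus strand: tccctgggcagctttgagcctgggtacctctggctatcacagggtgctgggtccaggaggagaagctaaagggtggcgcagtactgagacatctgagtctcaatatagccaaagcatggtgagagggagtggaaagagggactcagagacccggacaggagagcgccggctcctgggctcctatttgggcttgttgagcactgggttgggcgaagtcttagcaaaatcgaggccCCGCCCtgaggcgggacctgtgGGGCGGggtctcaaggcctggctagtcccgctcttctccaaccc
Timp3, chr10:86300162-86300461, plus strand: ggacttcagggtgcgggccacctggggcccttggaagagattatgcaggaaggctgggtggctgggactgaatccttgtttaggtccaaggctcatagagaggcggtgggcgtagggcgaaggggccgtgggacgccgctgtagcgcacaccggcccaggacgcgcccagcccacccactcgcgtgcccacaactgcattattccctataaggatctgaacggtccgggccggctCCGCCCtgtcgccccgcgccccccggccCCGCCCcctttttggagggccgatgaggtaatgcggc
The Col3a1 window holds the TATA motif, at -117 from the start site, and no CpG. The Timp3 window holds 24 CpG dinucleotides and a pair of GC boxes, and the Sparc window holds none of the 4 motifs. Of 32851 promoters of this length in the RefSeq table, 13.6% hold the TATA motif, 37.4% the CCAAT motif, 35.7% the GC motif and 7.81% the AP-1 motif. Promoters were listed for 23 of the 40 genes, 29 windows in all, of which 7 hold the TATA, 8 the CCAAT, 17 the GC and 1 the AP-1 motif. A match to these letters is a description of the sequence.

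Total counts per column ran from 2701500 to 19197138, so that 10 CPM, the level used below to call a gene present in a column, is at least 27 counts. Values of a few CPM were widespread. Krt5 and Krt14 had medians of 1.99 and 2.12 CPM in the simple columns and of 0 CPM in the mesenchymal columns, and Krt8 had a median of 2.55 CPM in the basal columns. The mesenchymal columns carried fibroblast genes, with a median of 1089 CPM for Vim, 696 CPM for Cdh11 and 256 CPM for Pdgfra, whose RNA reached 10 CPM in 66 of 79 columns although the sort took cells negative for its protein. Of 14 fibroblast markers, 12 had a median of 10 CPM or more in mesenchymal columns and none in simple or basal columns. Their sum still reached 100 CPM in 9 simple columns, up to 937 CPM, and in 3 basal columns, up to 284 CPM. Twist2, a transcription factor of the dermis, and Pdgfra reached 10 CPM in none of the 66 simple columns, and in basal columns Pdgfra did so in 1 of 54 and Twist2 in none. Both the sort and the qPCR screen selected against Pdgfra. The mesenchymal columns go against that screen, with Pdgfra at 10 CPM in 66 of 79 and a median of 0.407 CPM for the sum of 12 epithelial markers. Whether these columns passed the screen was not tested. Epcam and Cdh1, epithelial adhesion proteins, had medians of 1152 and 794 CPM in simple columns and of 360 and 370 CPM in basal columns. Genes known as markers of other cell types were also found in some columns. In the simple state Hba-a1, a haemoglobin chain, reached 10 CPM in 15 columns and 275076 CPM in the highest. In the mesenchymal state Myod1, the muscle determination factor, reached 10 CPM in 6 columns, and Kcnj8, a pericyte channel, in 16 others.

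Together the 40 genes took up a median of 10.3% of all counts in a mesenchymal column, from 0.534% to 19.4%. In a simple column they took up 0.349%, from 0.0310% to 1.32%, and in a basal column 0.403%, from 0.160% to 0.793%. Col1a1 and Col3a1 define the mesenchymal state, and the other 38 genes took up a median of 5.98% (0.373% to 11.1%) in mesenchymal, 0.329% (0.0309% to 1.23%) in simple and 0.403% (0.160% to 0.793%) in basal columns. The median column held 35 of the 40 genes at 10 CPM or more in the mesenchymal state, 10 in the simple state and 14 in the basal state. By gene, the median reached 10 CPM for 36 genes in the mesenchymal state, 9 in the simple state and 11 in the basal state, where 18.2%, 16.1% and 21.1% of the 33418 genes with a count did so. Of the 12 genes that passed this level in an epithelial state, 8 did so in both (Col5a1, Col5a2, Dcn, Vcan, Postn, Sparc, Timp3 and Mfap2), Col3a1 in the simple state alone, and Fbln1, Fbln2 and Col12a1 in the basal state alone. The other 28 passed it in neither.

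**Figure D1:**
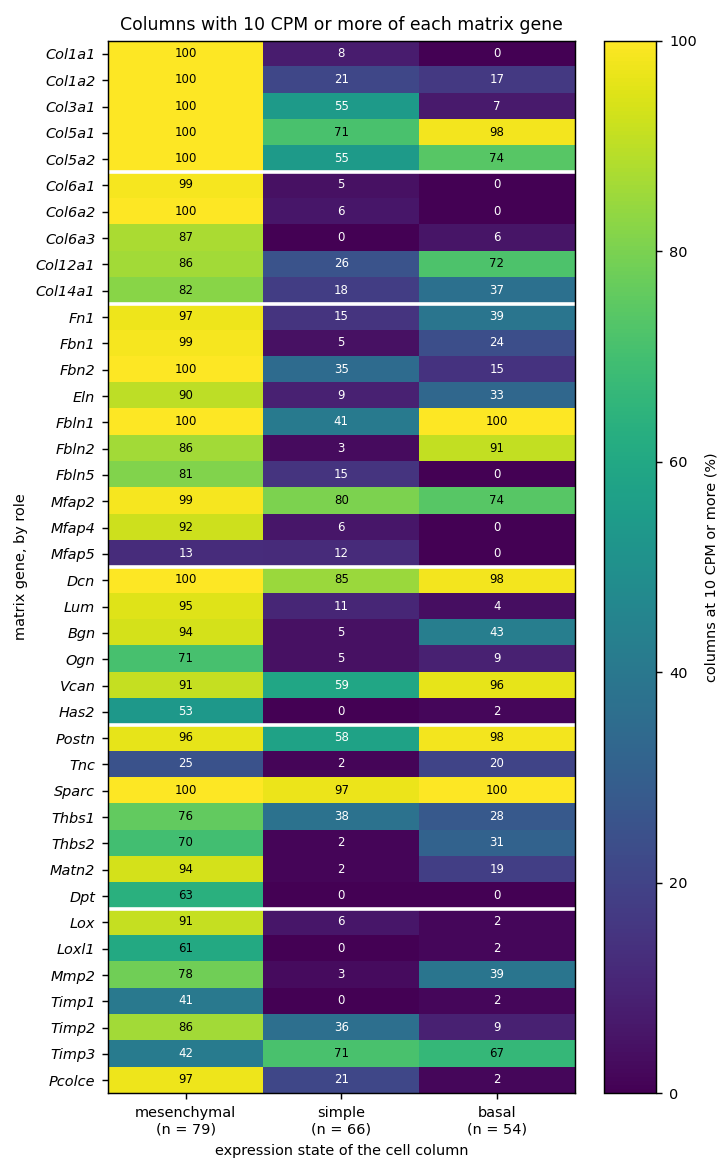
Percentage of columns with 10 CPM or more of each of the 40 matrix genes (rows, grouped by role, white lines between groups) in the mesenchymal (n = 79), simple (n = 66) and basal (n = 54) states. Sparc, Dcn and Mfap2 are bright in all 3 columns of the plot, Fbln1 and Fbln2 in the mesenchymal and basal columns, and collagen VI, Dpt and Lum in the mesenchymal column alone. Timp3 is the gene with a higher share in both epithelial states than in the mesenchymal state.

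Summed over the columns of a state, 33 of the 38 genes that do not define the mesenchymal state were at least 4-fold higher in mesenchymal than in basal columns, as were 14.6% of the 16850 genes compared. Against simple columns 32 of 38 were, as were 13.5% of 17259 genes. The median log2 ratio of the 38 genes was 4.89 against basal and 6.54 against simple columns, where all genes had medians of -0.23 in each case. The list was drawn up as mesenchymal genes, so these counts describe the choice. What they leave are the exceptions. Against basal columns Fbln1, Fbln2, Vcan, Postn and Timp3 did not reach 4-fold, and against simple columns Fbln5, Dcn, Vcan, Timp2, Timp3 and Mfap5 did not. Without the simple column with the most counts of the gene, Fbln5, Timp2 and Mfap5 did pass it, at log2 ratios of mesenchymal over simple of 2.65, 2.19 and 2.41, while Dcn (1.97), Vcan (1.88) and Timp3 (-0.82) did not. The 33 and 32 calls were all kept when the column with the most counts of the gene was left out of either state, although 11 and 19 ratios, the definers included, moved by over 1.5 times.

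Of the fibrillar collagens, the collagen III chain Col3a1 ran from 1225 to 58752 CPM with a median of 32629 in the mesenchymal columns, where it and Col1a1 define the state. Col1a1, the main collagen I chain, ran from 101 to 28120 CPM with a median of 13850. Per kilobase of exon the order of their summed levels was Col3a1 at 3183, Col1a1 at 2011 and Col1a2 at 1273 CPM per kb. In summed CPM Col1a2 (15813) stood above Col1a1 (13200). The order of these chains thus depends on the annotated exon lengths, 12426 and 6563 bases. Col1a2, the second collagen I chain, was not used by the rule, and ran from 300.3 to 38898 CPM around a median of 17226. Its values varied with those of Col1a1 from column to column, with a Spearman rho of 0.91 over 79 columns, the highest of 780 gene pairs. Col1a2 with Col5a1 came next at 0.86 and Col1a2 with Col3a1 at 0.85. These columns share library preparation and differ in depth, and the correlations are given as a description.

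In epithelial columns the same chains came apart. Col3a1 had a median of 82.9 CPM in the simple columns and reached 3742 CPM in the highest, while the lowest was at 0. Its values fell into separate clouds: 36 of 66 columns lay between 61.1 and 3742 CPM and the other 30 lay under 10 CPM. Col1a1 reached 10 CPM in 5 simple columns and Col1a2 in 14, and among the 36 columns with Col3a1 these numbers were 4 and 12. Summed over simple columns Col3a1 stood at 413 CPM, Col1a2 at 66 CPM and Col1a1 at 9.24 CPM, so that 44.7 Col3a1 counts were found per Col1a1 count. Mesenchymal columns are no measure for this ratio, since their rule requires Col1a1. The column of both states held 73.6% of the Col1a1 counts of the simple state, and without it 35 simple columns had Col3a1, 3 of them with Col1a1 and 11 with Col1a2. None of the 36 columns had Pdgfra or Twist2 at 10 CPM, but Vim reached it in 11 of the 36 and in 5 of the other 30. Lum, a proteoglycan abundant in the mesenchymal state, reached 10 CPM in 5 of the 36 and Col6a1, a collagen VI chain, in 3. Col3a1 shares 141 exonic bases with Gm47302 on the same strand in the annotation. In the basal columns Col3a1 reached 10 CPM in 4 of 54, at 47.7 to 88.4 CPM, and Col1a1 in none, with a highest value of 3.13 CPM.

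**Figure D2:**
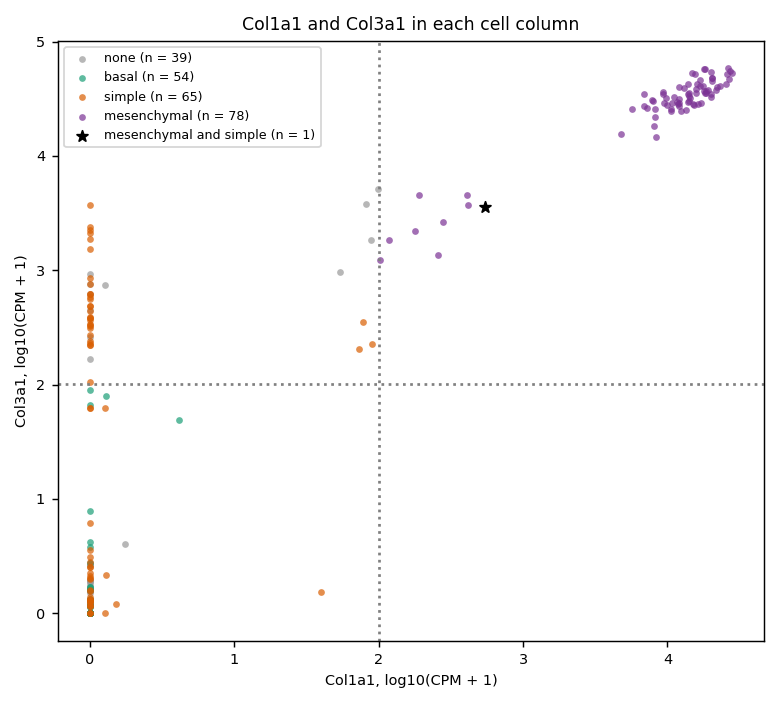
Col1a1 (x axis) against Col3a1 (y axis), both as log10(CPM + 1), in each column, coloured by state, with dotted lines at the 100 CPM limits of the mesenchymal rule. Most mesenchymal columns form a cloud at the upper right, apart from 9 lower ones and 4 columns just outside the limit, and the simple columns with Col3a1 stand mostly near a Col1a1 level of 0. The star is the column of both states.

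Among the simple columns, Col3a1 was found less often where haemoglobin RNA was present. It reached 10 CPM in 3 of the 15 columns with Hba-a1 at 10 CPM or more (20%) and in 33 of the 51 others (64.7%). The part of whatever sets these columns apart was not tested. Col5a1 and Col5a2, the collagen V chains that start fibril assembly, were found in both epithelial states. Col5a1 had a lowest, median and highest column of 289, 2534 and 6636 CPM in the mesenchymal state, of 0, 57.8 and 2211 CPM in the simple state and of 0.763, 157 and 437 CPM in the basal state. It reached 10 CPM in 53 of 54 basal and 47 of 66 simple columns. For Col5a2 the 3 values were 56.7, 1292 and 3133 CPM, then 0, 29.2 and 1058 CPM, then 0, 71.3 and 413 CPM, in the same order of states. The summed levels of simple and basal columns were within 1.5 times of each other for both chains, with log2 ratios of simple over basal of -0.41 for Col5a1 and 0.45 for Col5a2. Without its highest simple column Col5a1 stood at -0.69, beyond 1.5 times.

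Collagen VI, the beaded-filament collagen, was nearly restricted to the mesenchymal columns. Col6a1 had a median of 3945 CPM there and was found in 78 of 79 columns, and Col6a2 had a median of 2632 CPM and was found in all 79. No count of either gene was found in the 54 basal columns, which allows up to 0.00649 CPM (3 counts over the state). Their log2 ratio of mesenchymal over basal was thus at least 19.15 for Col6a1 and at least 18.62 for Col6a2. In simple columns Col6a1 reached 10 CPM in 3 of 66, at 27.6 CPM in the highest, and Col6a2 in 4, at 145 CPM in the highest. That highest Col6a2 column is the one that is also mesenchymal, and it held 83.4% of the gene's counts in the simple state. Col6a3 was less even, at 0 to 2580 CPM around a median of 803 CPM in the mesenchymal columns and at 10 CPM or more in 69. It stayed under 10 CPM in all 66 simple columns, reaching 5.69 CPM, and passed it in 3 basal columns, up to 120 CPM.

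The fibril-associated collagens behaved otherwise. Col12a1, which bridges collagen I fibrils, ran from 1.24 to 2958 CPM with a median of 545 in the mesenchymal columns, from 0 to 606 CPM with a median of 64.8 in the basal columns and from 0 to 398 CPM with a median of 0.264 in the simple columns. It reached 10 CPM in 68 of 79, 39 of 54 and 17 of 66 columns. Col14a1, its relative, had a median of 419 CPM in the mesenchymal columns and was found in 20 basal and 12 simple columns, with a highest value of 380 CPM in a simple column. The ranges of all 3 states overlapped for both genes.

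Among the elastic-fibre genes, the fibulins differed between the epithelial states. Fbln1 ran from 49 to 1292 CPM in the basal columns, where all 54 held it and the median was 557 CPM. In simple columns it ran from 0 to 392 CPM with a median of 2.85 CPM, and 27 of 66 held it. Mesenchymal columns spread from 11.8 to 4769 CPM around 2046 CPM, so that the basal range lay inside the mesenchymal one. Fbln2, a basement membrane and elastic-fibre adaptor, ran from 0.233 to 1074 CPM with a median of 229 CPM in the basal columns, 49 of which held it. Only 2 simple columns held Fbln2 at 10 CPM, at up to 145 CPM, and the simple median was 0.0699 CPM. Its mesenchymal range of 0 to 3538 CPM, around 434 CPM, enclosed the basal one. Summed over the state, the basal columns stood at 43.3% of the mesenchymal Fbln2 level and at 29.5% of the Fbln1 level. Fbln5 went the other way. It was found in 64 mesenchymal columns (0 to 788 CPM, median 192), in 10 simple columns (up to 1148 CPM) and in no basal column, where the highest value was 2.02 CPM.

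Fn1, fibronectin, had a median of 1622 CPM and a range of 0 to 4907 CPM in mesenchymal columns. It was present in 21 basal columns, up to 655 CPM, and in 10 simple columns, up to 112 CPM, with medians of 0.338 and 0 CPM. Fbn1 and Fbn2 encode the fibrillin microfibrils on which elastin is laid down, and Fbn1 shares 2442 exonic bases with Gm9913 on the opposite strand. Fbn1 had a median of 310.1 CPM (5.34 to 1795) in mesenchymal columns and was present in 13 basal columns (up to 100 CPM) and 3 simple columns (up to 71.3 CPM). Fbn2 had a median of 430.3 CPM (79.6 to 1520) and was present in 8 basal columns (up to 88.4 CPM) and 23 simple columns (up to 350.0 CPM). The fibrillins thus had opposite orders in the epithelial states. Eln, elastin itself, ran from 0.355 to 1874 CPM around 293 CPM in the mesenchymal state and was found in 18 basal columns, up to 242 CPM, and in 6 simple columns, up to 70.7 CPM.

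The microfibril-associated genes did not behave alike. Mfap2 was found in every state, at a lowest, median and highest of 4.42, 1550 and 3227 CPM in the mesenchymal columns, of 0, 114 and 1379 CPM in the simple columns and of 0, 53.3 and 557 CPM in the basal columns. Mfap4, at a median of 934 CPM (4.42 to 3616) in the mesenchymal columns, reached 10 CPM in 4 simple columns and in no basal column. Its highest simple column, at 816 CPM, held 78.7% of the gene's counts in that state. Mfap5 was silent in most mesenchymal columns, with a median of 0.231 CPM and 10 of 79 columns at 10 CPM, but these reached 969 CPM. It was present in 8 simple columns, up to 640.5 CPM, and in no basal column. Of the 10 mesenchymal columns with Mfap5, 8 were among the 16 with Kcnj8.

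Decorin and versican were the proteoglycans with a median of 10 CPM or more in all 3 states. Dcn, the gene of decorin, which binds collagen fibrils and limits their growth, ran from 0 to 8447 CPM with a median of 369 in the simple columns and from 2.95 to 2948 CPM with a median of 483 in the basal columns, and was found in 56 of 66 and 53 of 54 of them. The highest simple column lay above the highest mesenchymal column, at 7205 CPM, although the mesenchymal median was 3422 CPM. In the mesenchymal state 72 columns had 100 CPM or more, and the lowest had 11.3 CPM. Lum, lumican, lies beside Dcn on chromosome 10 and belongs to the same family, yet the pair parted in the epithelial states. Lum ran from 0.280 to 10864 CPM around 4255 CPM in the mesenchymal columns, but reached 10 CPM in 7 simple and 2 basal columns. A simple column at 2627 CPM held 78.8% of the simple counts, and the highest basal column, at 41.1 CPM, held 77.9% of the basal counts. The Dcn count per Lum count was 0.806 in the mesenchymal, 22 in the simple and 923 in the basal columns. In each epithelial state this ratio thus rests largely on the Lum counts of 1 column.

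Vcan, versican, a large proteoglycan that binds hyaluronan, was closer to its mesenchymal level in basal columns than any other member but Timp3, at 58.3% of the summed mesenchymal CPM. Its lowest, median and highest columns were 2.07, 542 and 2940 CPM in the mesenchymal, 0.521, 376 and 1979 CPM in the basal and 0, 70.5 and 2317 CPM in the simple state. In simple columns it was split, with 39 of 66 columns at 10 CPM and 31 at 100 CPM. Bgn, biglycan, had a mesenchymal median of 649 CPM and was found in 23 basal and 3 simple columns. Ogn, osteoglycin, had a mesenchymal median of 167 CPM and was found in 5 basal and 3 simple columns. Has2, the enzyme that makes hyaluronan, was found in 42 mesenchymal columns (median 33.6 CPM), in 1 basal column at 17.3 CPM and in no simple column.

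**Figure D3:**
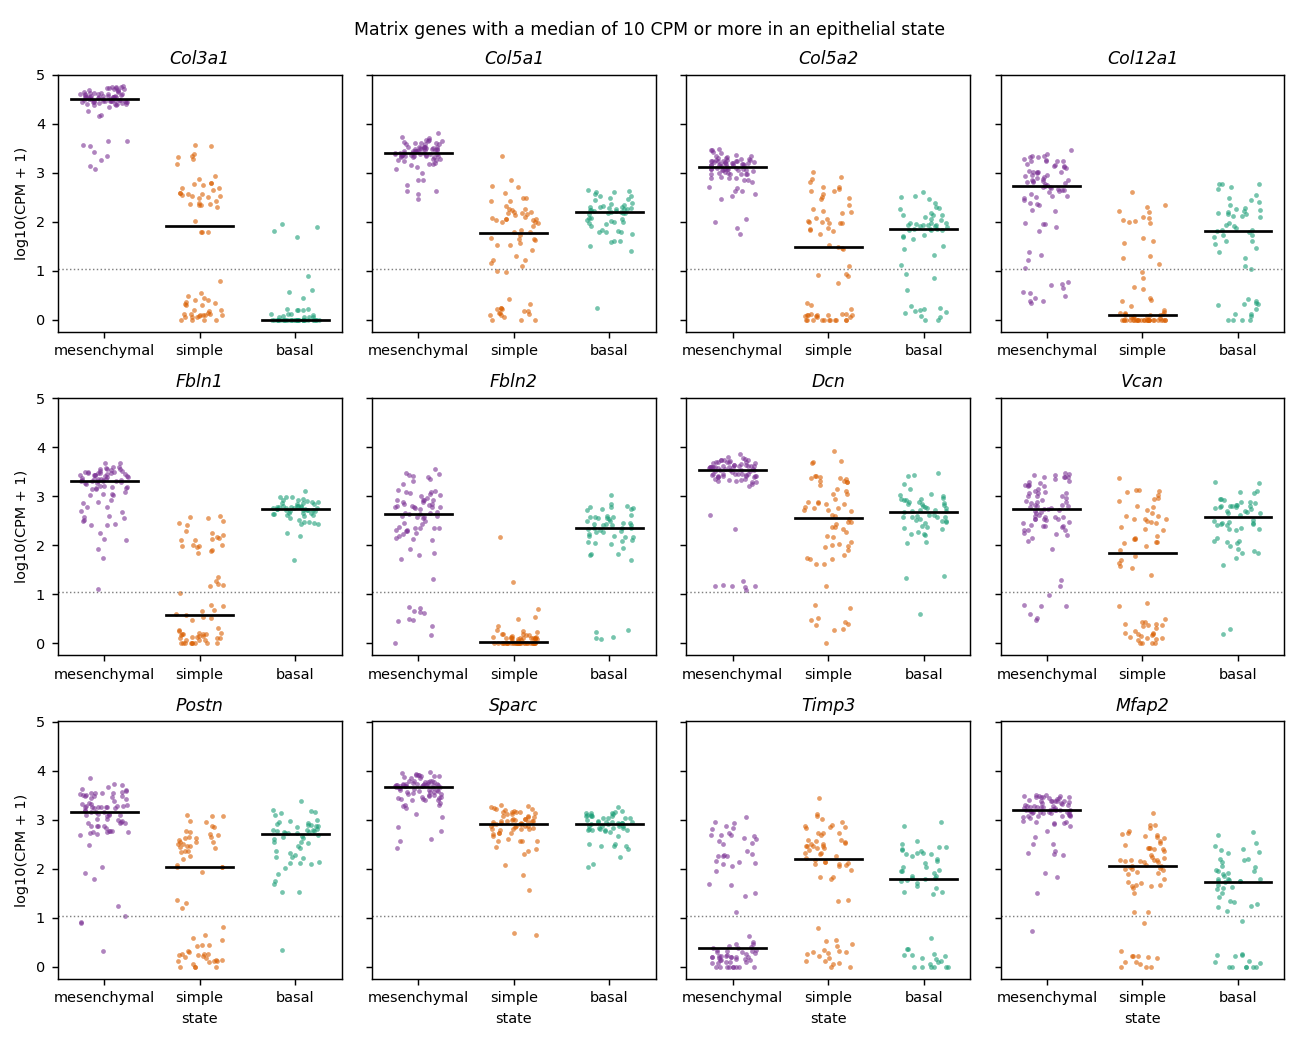
Values of log10(CPM + 1) in each column (points) for the 12 matrix genes with a median of 10 CPM or more in the simple or basal state, with black bars at the medians and a dotted line at 10 CPM. Sparc forms compact clouds in all 3 states, while Col3a1, Col5a2, Vcan, Postn and Timp3 split into columns near 0 and columns well above 10 CPM. Fbln2 is present in basal columns and near 0 in all but 2 simple columns.

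Sparc was found in nearly every column of all 3 states. This collagen-binding matricellular protein ran from 260.0 to 9416 CPM around 4643 CPM in the mesenchymal columns, from 3.39 to 2035 CPM around 835 CPM in the simple columns and from 110.1 to 1860 CPM around 824 CPM in the basal columns. It was present in 79 of 79, 64 of 66 and 54 of 54 columns. Summed, the simple columns stood at 894 CPM (95% Poisson interval 892 to 897) and the basal columns at 867 CPM (865 to 870), 20.1% and 19.5% of the mesenchymal level. Such intervals cover counting error only. Per kilobase of exon Sparc was the highest member in both epithelial states, at 236 CPM per kb in simple and 229 CPM per kb in basal columns. Next came Dcn at 165 and Mfap2 at 162 CPM per kb in simple columns, and Fbln1 at 129 and Dcn at 118 CPM per kb in basal columns. In the mesenchymal state Sparc, at 1176 CPM per kb, stood below the 3 collagen chains, Lum at 1655 and Mfap2 at 1347 CPM per kb.

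Postn, periostin, which promotes collagen cross-linking, was present in 53 of 54 basal columns, at 1.16 to 2455 CPM around a median of 515 CPM. In the simple columns it was split like Vcan, at 0 to 1268 CPM with a median of 108 CPM and 38 of 66 columns at 10 CPM. The mesenchymal range was 1.12 to 7221 CPM around 1474 CPM. Thrombospondins differed by gene. Thbs1 had a mesenchymal median of 169 CPM and was present in 25 simple columns, up to 1398 CPM, and in 15 basal columns, up to 149 CPM. Thbs2 had a median of 329 CPM (0 to 4090) in the mesenchymal columns and was present in 17 basal columns, up to 420.4 CPM, but in 1 simple column, at 14 CPM.

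Tnc, tenascin-C, and Matn2, matrilin-2, were also rare in simple columns. Tnc was absent from most mesenchymal columns, with a median of 0.615 CPM and 20 of 79 at 10 CPM, up to 1693 CPM, and these 20 included all 6 columns with Myod1, where its median was 687 CPM. It was present in 11 basal columns, up to 146 CPM, and in 1 simple column, at 52.2 CPM. Matn2 had a median of 305 CPM (0 to 1415) in the mesenchymal state and was present in 10 basal columns, up to 204 CPM, and in 1 simple column, at 14.3 CPM. Dpt, dermatopontin, was found in 50 mesenchymal columns, with a median of 99.6 CPM. It stayed at or under 1.14 CPM in every simple column and had no count in basal columns, so its log2 ratio of mesenchymal over basal was at least 15.15.

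Of the enzymes, the collagen cross-linker Lox was strongly mesenchymal, at 0 to 2918 CPM around a median of 1221 CPM and in 72 columns. It reached 10 CPM in 4 simple columns, up to 121 CPM, and in 1 basal column, at 31.7 CPM. Loxl1, which cross-links elastin, was low everywhere, with a mesenchymal median of 21.1 CPM (0 to 264), 1 basal column at 11.8 CPM and no simple column above 4.76 CPM. Pcolce, which speeds the cleavage of the procollagen tail, had a mesenchymal median of 375 CPM (1.55 to 1673). It was present in 14 simple columns, up to 757 CPM, and in 1 basal column, at 74.3 CPM. Mmp2, a gelatinase, had a mesenchymal median of 170 CPM (0 to 2442) and showed the opposite order, with 21 basal columns, up to 1712 CPM, and 2 simple columns, up to 119 CPM.

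The 3 TIMP genes had 3 patterns. Timp1 was low in the mesenchymal columns (median 0.499 CPM, highest 95.5 CPM, 32 of 79 at 10 CPM), without a count in the simple columns and at 10 CPM in 1 basal column, at 14.2 CPM. Timp2 had a mesenchymal median of 126 CPM (0.361 to 612) and was present in 24 simple columns, up to 479 CPM, and 5 basal columns, up to 103 CPM. Timp3, the inhibitor that binds to the matrix, was higher in epithelial columns by its median. It ran from 0 to 2844 CPM around 160 CPM in the simple columns and from 0 to 904 CPM around 62.3 CPM in the basal columns, and was present in 47 of 66 and 36 of 54. In the mesenchymal columns the median was 1.39 CPM and 33 of 79 columns held it, but those reached 1149 CPM. Its summed level in simple columns was 203% of the mesenchymal one and in basal columns 91.7%, so the sum did not follow the median there. Timp3 shares 1733 exonic bases with Syn3 on the opposite strand, and since strand-specific counting was not given, reads of the pair cannot be told apart.

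**Figure D4:**
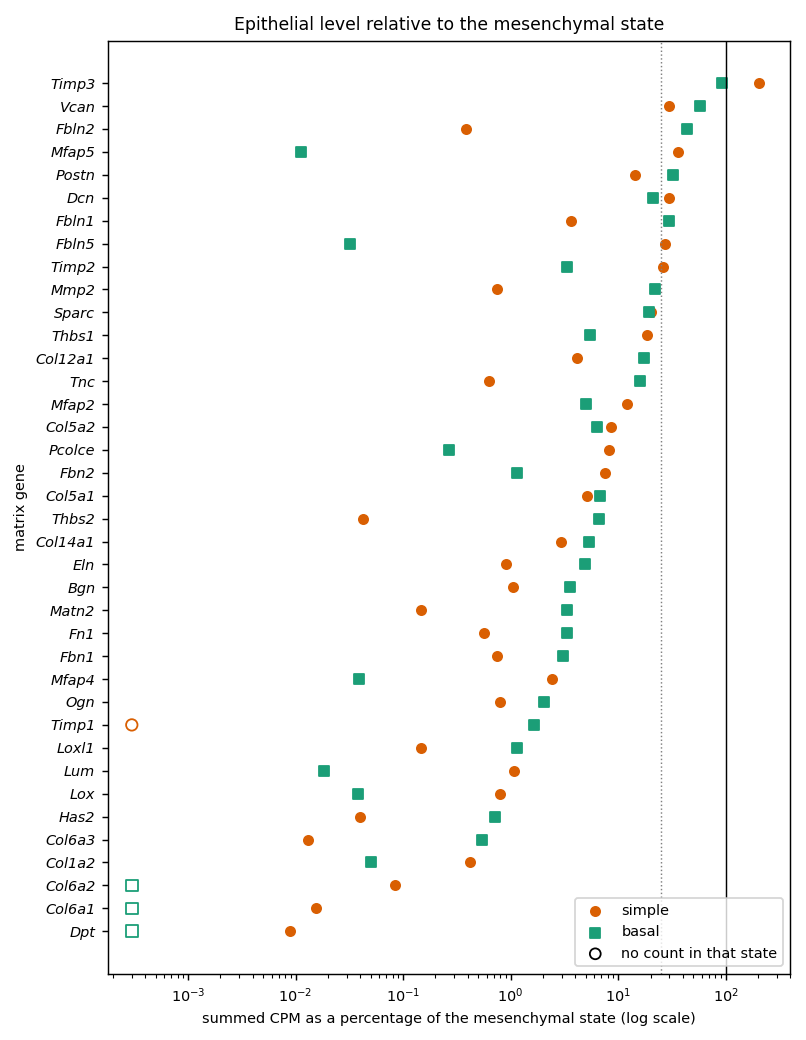
Summed CPM of each of the 38 genes that do not define the mesenchymal state, as a percentage of its summed mesenchymal CPM (log axis), in simple (circles) and basal (squares) columns. The solid line marks 100% and the dotted line 25%, open symbols at the left edge mark states without a count. Timp3 in simple columns, at 203%, is the point right of the solid line, and Col6a1, Col6a2 and Dpt have no count in basal columns.

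Between the epithelial states, 35 of the 40 genes could be compared. Simple columns were at least 4-fold higher for 12 of them, as were 12.5% of 16673 genes, and at least 4-fold lower for 11, as were 7.71%. The median log2 ratio of the 35 was 0.04, and that of all genes 0.05. These counts depend on the measure. By the ratio of medians, with a pseudocount of 1 CPM, 1 gene was higher and 5 were lower, and in columns with Col1a1 and Col3a1 under 1 CPM 6 were higher and 13 lower. Col1a1 and Col3a1 are themselves among the 12, and this choice of columns alone ends their calls. Col1a2 turned to a log2 ratio of -6.24 in those columns, and Mfap4 to -0.38 by the ratio of medians. The 12 were Col1a1, Col1a2, Col3a1, Col6a2, Fbn2, Fbln5, Lum, Lox, Timp2, Mfap4, Mfap5 and Pcolce. The 11 were Col6a3, Col12a1, Fn1, Fbn1, Eln, Fbln1, Fbln2, Tnc, Thbs2, Mmp2 and Matn2. A call from a sum can rest on few columns. Leaving out the column with the most counts of the gene from either state ended the call for Col6a2, whose remaining counts could not be compared, for Col12a1 (log2 ratio of simple over basal from -2.09 to -1.93) and for Fbn1 (from -2.03 to -1.81, and to -3.27 without its highest simple column). It moved 16 of the 23 calls by over 1.5 times.

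The differences carried by many columns were those of Col3a1, Fbln1, Fbln2 and Col12a1. Col12a1 was present in 39 of 54 basal and 17 of 66 simple columns. Its log2 ratio of -2.09 lay near the 4-fold limit and stood at -1.93 without its highest basal column. Col3a1 had a log2 ratio of simple over basal of 6.23, and of 5.90 without its highest simple column. Fbln1 had -3.03, and -3.25 without its highest simple column. Fbln2 had -6.81, with 80.9% of the simple counts in 1 column and -9.17 without it. Timp2 (2.94) and Fbn2 (2.74) were carried by 24 and 23 simple columns, with values of 2.70 and 2.57 without the highest simple column and of 3.55 and 3.20 without the highest basal column. Thbs2 (-7.27), Mmp2 (-4.88) and Fn1 (-2.55) were carried by 17, 21 and 21 basal columns, and without the highest basal column stood at -6.72, -4.45 and -2.30. Removing the highest simple column instead gave -8.51, -6.37 and -2.81.

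For the remaining calls the number of columns was small in the higher state, apart from Eln, whose 18 basal columns compare with 17 for Thbs2. Fbln5 (9.72), Pcolce (4.94) and Col1a2 (3.06) were present in 10, 14 and 14 simple columns. Without the highest simple column they stood at 8.94, 4.04 and 2.63. Mfap5 was present in 8 simple columns, and the basal columns held 2 counts of it. Its log2 ratio was 11.63, with a counting interval of 9.78 to 14.68, and 10.71 (8.85 to 13.75) without the highest simple column. Lum (5.88), Mfap4 (5.94), Lox (4.41) and Col1a1 (7.48) were present in 7, 4, 4 and 5 simple columns and stood at 3.66, 3.74, 3.80 and 5.58 without the highest. Eln (-2.45), Matn2 (-4.53), Tnc (-4.68) and Col6a3 (-5.38) were present in 18, 10, 11 and 3 basal columns and stood at -2.08, -4.06, -4.46 and -4.33 without the highest. Removing the highest basal column moved Lum to 8.04, Lox to 7.64, Pcolce to 8.83 and Fbln5 to 10.46. For Col1a1 it left 2 basal counts and a log2 ratio of 11.04, with a counting interval of 9.19 to 14.09. Removing the highest simple column moved Tnc to -7.91, Col6a3 to -5.98 and Matn2 to -5.22. Sparc (0.04), Dcn (0.49), Vcan (-0.96), Postn (-1.16), Timp3 (1.15) and Mfap2 (1.25) lay inside the 4-fold limits.

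The simple columns free of Col1a1 and Col3a1 (both under 1 CPM, 18 of 66) gave a shorter list. Col3a1, which is on the full list, could not be on it by this choice of columns. There the median reached 10 CPM for 4 genes, Dcn at 369 CPM, Sparc at 589 CPM, Timp3 at 172 CPM and Mfap2 at 71.6 CPM. Col5a1, Col5a2, Vcan and Postn had medians of 8.67, 0.227, 1.64 and 4.04 CPM in these columns. The 46 basal columns under the same condition kept 11 genes, with medians of 795 CPM for Sparc, 568 CPM for Fbln1, 554 CPM for Postn and 483 CPM for Dcn. The 51 simple columns with Hba-a1 under 10 CPM gave 9 genes, and the 15 with more gave 5. In those 15 the medians were 761 CPM for Sparc, 338 CPM for Dcn, 81.9 CPM for Mfap2, 66.5 CPM for Col5a1 and 19.3 CPM for Postn, while Timp3 had a median of 5.12 CPM. The 15 overlap with the 18 columns free of Col1a1 and Col3a1, sharing the highest Col5a1 (2211 CPM) and the lowest Sparc (3.39 CPM). Of the 30 simple columns with Col3a1 under 10 CPM, 12 had Hba-a1 at 10 CPM or more, so these subsets are not independent.

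How the members varied inside a state also differed. In basal columns Col12a1 and Vcan went together, with a Spearman rho of 0.73 over 54 columns, the highest of the 55 pairs of the 11 genes present there. Fbln1 ran against both, with a rho of -0.60 with Col12a1 and of -0.53 with Vcan, the lowest of the 55. The basal columns mix cell labels, and those tied to a label are 11 basal layer and 4 K17 high cells. The log2 ratios of K17 high over basal layer cells were 1.03 for Fbln1, -2.49 for Vcan and -2.83 for Col12a1. The part of this mix in the correlations was not tested. In simple columns the highest of 36 pairs was Col5a2 with Vcan at 0.47. In mesenchymal columns Mfap2 with Mfap4 reached 0.84 and Col6a1 with Col6a2 0.82, and the lowest of 780 pairs were Lum with Timp1 at -0.48, Fbln1 with Loxl1 at -0.45 and Fbln2 with Tnc at -0.41. All columns share the total as denominator.

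The mesenchymal state was not uniform. Col1a1 was between 4790 and 28120 CPM in 70 columns and between 101 and 540.3 CPM in the other 9. In those 9 columns Pdgfra and Twist2 stayed at or under 1.61 and 1.07 CPM, Vim ran from 126 to 1642 CPM, and 6 of them were the columns with Myod1. Beside Col3a1, which the rule requires and which had a median of 2625 CPM there, the medians were 1409 CPM for Col1a2, 712 CPM for Sparc, 577 CPM for Col5a1 and 388 CPM for Tnc. Lum and Dcn had medians of 10.1 and 14 CPM in them, against 4494 and 3704 CPM in the other 70, and Lum never passed 20.6 CPM. Timp1 reached 10 CPM in 7 of the 9 and in 25 of the 70. Another 4 columns just missed the state, with Col1a1 at 53.3, 80.3, 87.5 and 97.3 CPM and Col3a1 at 972 to 5100 CPM. They held Sparc at 1422 to 7686 CPM, Postn at 864 to 6623 CPM and Matn2 at 171 to 907 CPM, with Lum at 13.4 to 32.1 CPM.

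The 16 columns with Kcnj8 took up more of their counts with matrix genes, 14.2% in the median (1.62% to 16.9%), than the 57 columns with neither Kcnj8 nor Myod1, at 10.1% (0.534% to 19.4%), and the ranges overlapped. The 6 with Myod1 took up 0.889% (0.668% to 1.49%). Of the 57, 2 columns with Col1a1 under 1000 CPM took up 0.534% and 1.25%, and the other 55 took up 5.85% to 19.4%. All 6 Myod1 columns had Col1a1 under 1000 CPM, and Col1a1 is itself part of this share. Their distance from the 55 can thus not be told apart from their low Col1a1. The 1 Kcnj8 column with so little Col1a1 took up 1.62% and the other 15 took up 5.46% or more. Postn had a median of 3115 CPM in the Kcnj8 columns and 1414 CPM in the 57, Dpt 593 and 56.3 CPM, and Thbs2 1240 and 227 CPM. Fbln1 had 679 and 2356 CPM, Mfap4 367 and 1316 CPM, and Has2 0.280 and 64.8 CPM. The column of both states held Col1a1 at 540.3 CPM and Col3a1 at 3542 CPM with Krt8 at 169 CPM, Krt18 at 192 CPM and Epcam at 2.52 CPM.

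The 16 labelled cells came from embryo WT01. By their labels 11 were basal layer cells (WT-KCB), 4 were K17 high cells (WT-KCP) and 1 was an intermediate layer cell (WT-KCI), and by the rules above all but the last were basal columns. They are cells of 1 embryo, so ranges over cells are given without a test. The matrix genes took up 0.433% of the counts in the median WT-KCB cell, 0.399% in the median WT-KCP cell and 0.0253% in the WT-KCI cell. A WT-KCB cell held 11 to 18 of the 40 genes at 10 CPM or more, with a median of 14, a WT-KCP cell 12 to 16, also with a median of 14, and the WT-KCI cell 4. Those 4 were Mmp2 at 106 CPM, Fbln1 at 68.4 CPM, Vcan at 47.4 CPM and Fbn1 at 18.7 CPM, while Sparc and Dcn had 1.70 and 1.46 CPM.

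**Figure D5:**
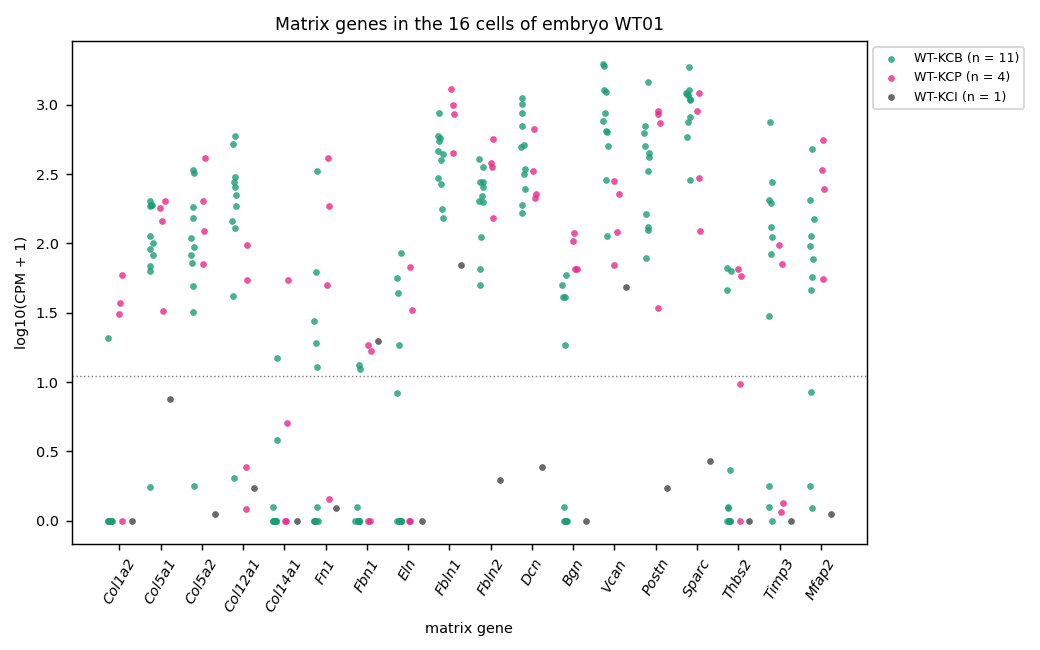
Values of log10(CPM + 1) in the 16 labelled cells of embryo WT01 for the 18 matrix genes that reached 10 CPM in a WT-KCP cell, with a dotted line at 10 CPM. WT-KCB cells (n = 11) are green, WT-KCP cells (n = 4) pink and the WT-KCI cell (n = 1) dark grey. The 4 WT-KCP values of Bgn all lie above the 11 WT-KCB values, as do those of 0.266% of the 15387 genes compared, and Vcan and Col12a1 lie lower in WT-KCP cells with some overlap.

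Summed over cells, 3 of the 27 genes that could be compared were at least 4-fold higher in WT-KCP than in WT-KCB cells, as were 10.1% of 15387 genes, and 12 were at least 4-fold lower, as were 15.7%. The 3 were Col1a2, Col14a1 and Bgn. Bgn, biglycan, stood at 118, 64.7, 64.6 and 103 CPM in the 4 WT-KCP cells and between 0 and 57.8 CPM in the WT-KCB cells (median 0.258 CPM). Of the 27 genes compared it was the 1 without overlap between the groups, with WT-KCP above, as were 0.266% of 15387 genes. None lay wholly below, as did 0.078% of all genes. Its log2 ratio of 2.14 ran from 1.96 to 2.50 when each cell was left out, and fell under 4-fold without WT-KCP cell 1 or WT-KCB cell 5. Col1a2 stood at 30.0, 36.2, 0 and 58.6 CPM in the WT-KCP cells, and in 1 of 11 WT-KCB cells at 19.9 CPM. Its log2 ratio was 4.16, and 3.66 at the lowest without 1 cell. All WT-KCB counts came from WT-KCB cell 6, and without it the ratio was at least 9.58. Col1a1 had no count in the WT-KCP cells and at most 3.13 CPM in a WT-KCB cell. Col14a1 stood at 4.08, 0, 53.9 and 0 CPM, and without the third of these cells the log2 ratio went from 3.52 to -0.14.

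The proteoglycan and fibril genes lower in WT-KCP cells included Vcan, at 120, 281, 69.2 and 227 CPM against 112 to 1979 CPM (median 758) in WT-KCB cells. Col12a1 stood at 96.0, 1.43, 0.223 and 53.1 CPM against 1.02 to 592 CPM (median 224). The log2 ratios were -2.49 for Vcan (-2.84 to -2.16 without 1 cell) and -2.83 for Col12a1 (-3.98 to -2.31). Thbs1 was present in 6 of 11 WT-KCB cells, up to 149 CPM, and had no count in any WT-KCP cell, a log2 ratio of -8.68 or lower. Timp3 reached 10 CPM in 2 of the 4 WT-KCP cells, at 95.8 CPM in the highest, and in 8 of 11 WT-KCB cells, which ran from 0 to 748 CPM. Its log2 ratio of -2.10 ended as a call without any of 4 cells (range -2.93 to -1.44). The other genes lower in WT-KCP cells were Col3a1, Fbn2, Ogn, Tnc, Loxl1, Mmp2, Timp2 and Matn2, each at 10 CPM or more in at most 3 WT-KCB cells and in no WT-KCP cell. For Tnc and Loxl1 the call rested on 1 WT-KCB cell each, WT-KCB cell 4 and WT-KCB cell 10.

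Most of the shared matrix genes did not part the groups by 4-fold. Fbln1 stood at 446, 989, 855 and 1292 CPM in the WT-KCP cells and at 151 to 866 CPM (median 438) in the WT-KCB cells. Fbln2 stood at 382, 356, 562 and 151 CPM against 49.5 to 406 CPM (median 220). Mfap2 stood at 244, 336, 54.5 and 557 CPM against 0.237 to 480.3 CPM (median 76.4). The summed level was higher in WT-KCP cells for all 3 genes, with log2 ratios of 1.03, 0.79 and 1.30, and their ranges overlapped. Sparc stood at 907, 122, 1219 and 294 CPM against 288 to 1860 CPM (median 1107). Dcn stood at 334, 226, 668 and 212 CPM against 163 to 1123 CPM (median 498). Postn stood at 859, 737, 33.2 and 898 CPM against 77.8 to 1457 CPM (median 417). These 3 genes spread widely within each group.

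The collagen V chains were present in all 4 WT-KCP cells. Col5a1 stood at 31.5, 143, 201 and 179 CPM against 0.763 to 202 CPM (median 100.4) and Col5a2 at 201, 122, 69.7 and 413 CPM against 0.771 to 335 CPM (median 92.8). Fn1 stood at 49, 409, 0.445 and 186 CPM against 0 to 331 CPM (median 0.258), and its log2 ratio of 1.91 ran from 0.78 to 3.72 without 1 cell. Fbn1 stood at 15.6, 17.4, 0 and 0 CPM against 0 to 12.3 CPM. Eln stood at 0, 66.3, 32.2 and 0 CPM against 0 to 84.7 CPM. Thbs2 stood at 8.75, 64.4, 0 and 57.1 CPM against 0 to 65.4 CPM. These genes were present in some cells of either group and absent from others.

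The shared genes were also present in the other basal columns. In the 39 basal columns outside the 16 labelled cells, Sparc had a median of 759 CPM, Fbln1 574 CPM, Postn 532 CPM, Dcn 529 CPM, Vcan 319 CPM and Fbln2 229 CPM. In the 15 basal columns among the labelled cells these medians were 1086, 464, 444, 341, 638 and 256 CPM, and the ranges overlapped for each. Mmp2 was present in 19 of the 39 columns and in 2 of the 15, and Col14a1 in 18 and 2.

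Genes that act on or bind the matrix were read in the same states. Of 16 genes for collagen processing, 13 had a median of 10 CPM or more in mesenchymal, 4 in simple and 7 in basal columns, and 11 were at least 4-fold higher in mesenchymal than in basal and 12 than in simple columns. The highest was P4hb, the disulfide isomerase subunit of prolyl hydroxylase, with medians of 1300.4, 724 and 532 CPM. Serpinh1, the collagen chaperone HSP47, had 1257, 134 and 151 CPM, and Plod1, a lysyl hydroxylase, 438, 0 and 0 CPM. Of 14 matrix receptors, 9, 4 and 7 had such a median. The integrin chain Itgb1 had medians of 953, 310 and 323 CPM, Ddr2, the collagen receptor of mesenchymal cells, 313, 0 and 0 CPM, and Sdc2 138, 75.1 and 83.6 CPM. Of 12 genes of the TGF-beta axis, 7, 3 and 4 did. The latent TGF-beta binding proteins Ltbp1 and Ltbp4 had medians of 267, 0.255 and 0.347 CPM and of 220, 223 and 174 CPM, and Tgfbi 149, 0 and 0 CPM.

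Of the lists of other cell types, 5 were low in the median column of all 3 states. The neural sum still reached 100 CPM in 6 mesenchymal columns. The melanocyte and Schwann cell sum did so in 5 simple, 1 mesenchymal and 1 basal column, the endothelial sum in 1 simple and the cartilage sum in 1 mesenchymal column. The summed endothelial genes reached at most 230 CPM in a column, the immune genes 54.2 CPM, the cartilage genes 152 CPM, the neural genes 285 CPM and the melanocyte and Schwann cell genes 239 CPM, and each of these lists had a median sum of at most 1.80 CPM in every state. The 5 muscle genes summed to 19326 CPM in the highest mesenchymal column, with 10 columns at 100 CPM or more and no epithelial column above 36.9 CPM. The 5 mural genes summed to 100 CPM or more in 37 mesenchymal, 27 simple and 5 basal columns. Of these Notch3, also an epithelial receptor, had a median of 60.8 CPM in simple columns, while Kcnj8 reached 10 CPM in none. The 5 erythroid genes summed to 100 CPM or more in 11 simple, 3 basal and no mesenchymal columns, and to 404901 CPM in the highest simple column. Their part in the matrix levels was not tested beyond the subsets given above.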

How the data were processed

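Full-length cDNA of single cells was amplified with SMART-Seq HT, tagged with Nextera XT and sequenced as 150-base read pairs. The authors trimmed reads with Trimmomatic, aligned them with HISAT2 to mm10 and counted genes with featureCounts against Ensembl 97, and the submitters' processing notes also name DESeq2 1.36.0. Settings for strand and multiply mapped reads are not given in the sources used here. The deposited values are estimated counts per gene, of which 23.2% of those above 0 are not whole, and they were rounded here.

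CPM was the rounded count divided by the column total. Levels of a state are the summed counts of its columns over their summed totals, with exact Poisson 95% intervals. A gene was compared between states when it reached 1 CPM in at least 1 of them, and called at a ratio of 4 or more. A group without a count was set to 3 counts, over the group, and the ratio is then a bound. With 1 or 2 counts the ratio is given with its counting interval, while calls used 3 counts. Exon lengths came from GENCODE vM21 and cover every annotated exon of a gene, joined over its transcripts. Levels per kilobase therefore depend on the annotated transcripts. Computations ran in Python 3.11.15 (scipy 1.17.1 for the intervals, pandas 2.3.3 for the tables), and the ratios were tested on simulated data. All 40 genes are named. The genes, the lists and the limits were chosen with earlier results of these data known. Alternatives were the rounding, the scaling, the limits of the states, the level and fold of a call, and leaving out columns or cells.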

Additional observations from a re-analysis of the deposited data

Results flagged for a closer look

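Among the 18 matrix genes that reached 10 CPM in at least 1 WT-KCP cell, 1 had a cell far from the others. These genes were admitted by their highest WT-KCP cell, and Col14a1 entered through WT-KCP cell 3 alone. Its flag is thus not independent of how the genes were chosen. Col14a1 stood at 53.9 CPM in WT-KCP cell 3 and at 4.08, 0 and 0 CPM in the other WT-KCP cells, so that the gap below the highest cell was 0.924 of the whole range. The 4 cells come from 1 embryo, so this gap is a description of these cells and not a test. Over independent samples, chance gives such a gap in about 1 of 20 groups.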

How the results depend on the processing

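Of 122 counts of genes recomputed under alternatives, 115 stayed within 1.5 times of the reported count. The genes with a median at the level fell from 9 to 5 in simple and from 11 to 7 in basal columns at a level of 100 CPM. With epithelial columns limited to those with Col1a1 and Col3a1 under 1 CPM, the simple count was 4, and 6 instead of 12 genes were higher in simple than in basal columns. That limit alone takes Col3a1 out of the first count, and Col1a1 and Col3a1 out of the second. By the ratio of medians, with a pseudocount of 1 CPM, 1 gene was higher and 5 were lower, and at a fold of 10 the lower count was 6. Of 381 log2 ratios, 217 stayed within the counting interval, 162 moved beyond it and 2 reversed, Col1a2 to -6.24 in the columns without Col1a1 and Col3a1 and Mfap4 to -0.38 by the ratio of medians. The cause was not tested. Leaving out each labelled cell gave 2 to 4 genes higher and 10 to 12 lower in WT-KCP cells.

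Scaling by size factors over 3993 genes moved the median log2 ratio of all genes by 0.41 for mesenchymal over basal, 0.18 for mesenchymal over simple and 0.23 for simple over basal columns. No column had under 1000000 counts. Leaving out columns with Hba-a1, with Myod1 or Kcnj8, or with low Col1a1 was chosen after seeing the data. No paired analysis was possible because the columns carry no replicate numbers. States are pooled cells without embryos, so intervals cover counting error only.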
